A study of Rattus norvegicus with 18 samples.

Results

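The endoplasmic reticulum (ER) unfolded protein response (UPR) was followed here through 10 of its best known genes in rat cerebral cortex after subarachnoid hemorrhage (SAH). The genes were Hspa5, Xbp1, Ddit3, Atf4, Herpud1, Sdf2l1, Pdia4, Dnajb9, Creld2 and Trib3. They were taken by symbol from a table of 30735 genes, each symbol had 1 row, and all 10 passed the filter on low counts. The RNA came from the cortex of rats that had the sham operation (sham group), or from rats at day 1 (SAH 1d group) or day 7 (SAH 7d group) after SAH, with 6 libraries in each group. The animals were Sprague-Dawley rats aged 8 to 10 weeks, and the hemorrhage was made by endovascular perforation of a cerebral artery. In the sham group no vessel was pierced. No day of sampling is given for the sham group in the labels or the study's methods, and the same sham libraries were set against both times. Effects of time since the operation cannot be told apart from those of SAH where the days differ. The labels give the tissue and the treatment, and name no mutation and no drug.

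The UPR is the answer of a cell to unfolded protein in the ER. A trio of sensors in the ER membrane starts it. IRE1 (Ern1) splices the Xbp1 mRNA so that it encodes an active transcription factor, ATF6 is cut to release a transcription factor, and PERK (Eif2ak3) phosphorylates eIF2alpha, which lowers most translation but favours that of ATF4. ATF6 and spliced XBP1 are known for raising ER chaperones, folding enzymes and degradation factors such as Hspa5, Pdia4, Sdf2l1, Dnajb9, Creld2 and Herpud1. ATF4 is known for raising Ddit3 (CHOP), Trib3 and genes of amino acid supply, and kinases other than PERK can also raise it, a wider program called the integrated stress response. Counts per gene read the amount of mRNA. They do not separate spliced from unspliced Xbp1, and they do not read the translation of Atf4.

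The promoters are shown because they carry the short DNA words through which ATF6 and XBP1 are known to act. RefSeq promoter windows, from 250 bases before to 50 bases after the transcription start in the GRCr8 build, were matched by symbol for 10 of 10 genes. The ER stress response element was searched on both strands as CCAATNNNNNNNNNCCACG, and was in 22 of 33469 windows of all genes (0.0657%). It was in the windows of Hspa5, Xbp1 and Creld2. Its second form, ERSE-II (ATTGG, any base, then CCACG), was in 17 windows (0.0508%), and Herpud1 was the only 1 of the 10 genes to hold it. The 150 bases before the start of these 4 genes follow, 5′ to 3′ on the strand of the gene, with the element in capitals:
Hspa5: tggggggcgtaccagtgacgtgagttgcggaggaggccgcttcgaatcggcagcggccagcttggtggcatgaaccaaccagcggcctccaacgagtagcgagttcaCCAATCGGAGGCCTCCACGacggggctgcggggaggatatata
Xbp1: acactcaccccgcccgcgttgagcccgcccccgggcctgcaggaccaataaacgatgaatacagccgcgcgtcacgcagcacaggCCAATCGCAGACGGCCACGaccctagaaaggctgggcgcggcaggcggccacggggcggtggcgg
Creld2: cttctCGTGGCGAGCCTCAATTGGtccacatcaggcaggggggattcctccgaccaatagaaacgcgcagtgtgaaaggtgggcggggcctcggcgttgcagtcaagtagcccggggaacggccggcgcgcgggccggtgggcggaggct
Herpud1: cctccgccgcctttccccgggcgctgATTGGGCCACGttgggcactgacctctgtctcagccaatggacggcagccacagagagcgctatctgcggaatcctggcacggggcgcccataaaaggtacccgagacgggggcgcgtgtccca
They lie at chr3:38452866-38453015 (plus strand) for Hspa5, chr14:84604473-84604622 (plus strand) for Xbp1, chr7:121789234-121789383 (plus strand) for Creld2 and chr19:10614708-10614857 (minus strand) for Herpud1. The element ends 25 bases before the start in Hspa5 and 47 bases before it in Xbp1. In Creld2 it is farther away, from 145 to 127 bases before the start, and reads on the opposite strand. The ERSE-II of Herpud1 lies from 124 to 114 bases before the start. A composite C/EBP-ATF core, the word bound by ATF4 dimers and searched as TGATGCAA on both strands, was in 266 windows (0.795%) and also in that of Herpud1, on the opposite strand from 184 to 177 bases before the start. The windows of Atf4, Ddit3, Trib3, Sdf2l1, Pdia4 and Dnajb9 held none of these 3 words. The core of the UPR element (TGACGTGG), in 199 windows (0.595%), was in none of the 10. A matching word describes the sequence only, and a missing word says only that these letters are not in this window.

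Total counts per library ran from 27270026 to 38271014. Markers of neurons, astrocytes and oligodendrocytes were present in every library, as cortex should have. Libraries SAH 7d-5 and SAH 1d-3 stood apart from the rest of their groups, so many results, though not all, are also given without them. SAH 1d-3 was the highest of its group for 33.1% of the 18444 genes tested and SAH 7d-5 for 38.7%, where the other 16 libraries ranged from 8.21% to 26.6%. In counts scaled to library size (CPM, normalized), the sum of 6 monocyte and macrophage markers was 8856 in SAH 7d-5 against 90.9 to 283 in the rest of the SAH 7d group, and 673 in SAH 1d-3 against 99.9 to 135 in the rest of the SAH 1d group. The 6 meningeal fibroblast markers summed to 4188 in SAH 7d-5 against 269 to 433. The 7 neuron markers summed to 2354 there against 6753 to 8997. In these bulk samples, more cells of a type and more RNA per cell cannot be told apart.

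At day 1, the 10 genes split into those that rose and those whose values overlapped with the sham group. Trib3, a pseudokinase and target of ATF4 and CHOP, rose 17.0-fold, a log2 fold change of 4.08 that ran from 3.83 (without sham-1) to 4.70 (without sham-4) when 1 library was left out. Over the other alternatives given below, the log2 fold change of Trib3 ran from 1.10 to 4.17, so its size depended on the processing. Ddit3, which encodes the transcription factor CHOP, rose 1.85-fold, Creld2 1.82-fold, Herpud1 1.59-fold and Pdia4 1.58-fold. These 5 of 10 genes passed edgeR's quasi-likelihood test at an adjusted p under 0.05 (Benjamini-Hochberg over all genes tested), all of them higher, where 14.9% of all genes tested were called higher and 25.4% in either direction. The same 5 were also those in which all 6 SAH 1d libraries lay above all 6 sham libraries, which held for 7.89% of all genes. Trib3 alone was a differentially expressed gene (DEG) with a change of at least 1 on the log2 scale, against 5.57% of genes that were DEGs and higher. All 10 genes had a log2 fold change above 0, as did 50.9% of all genes, and the median of the 10 was 0.63, beside 0.01 over all genes tested.

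**Figure D1:**
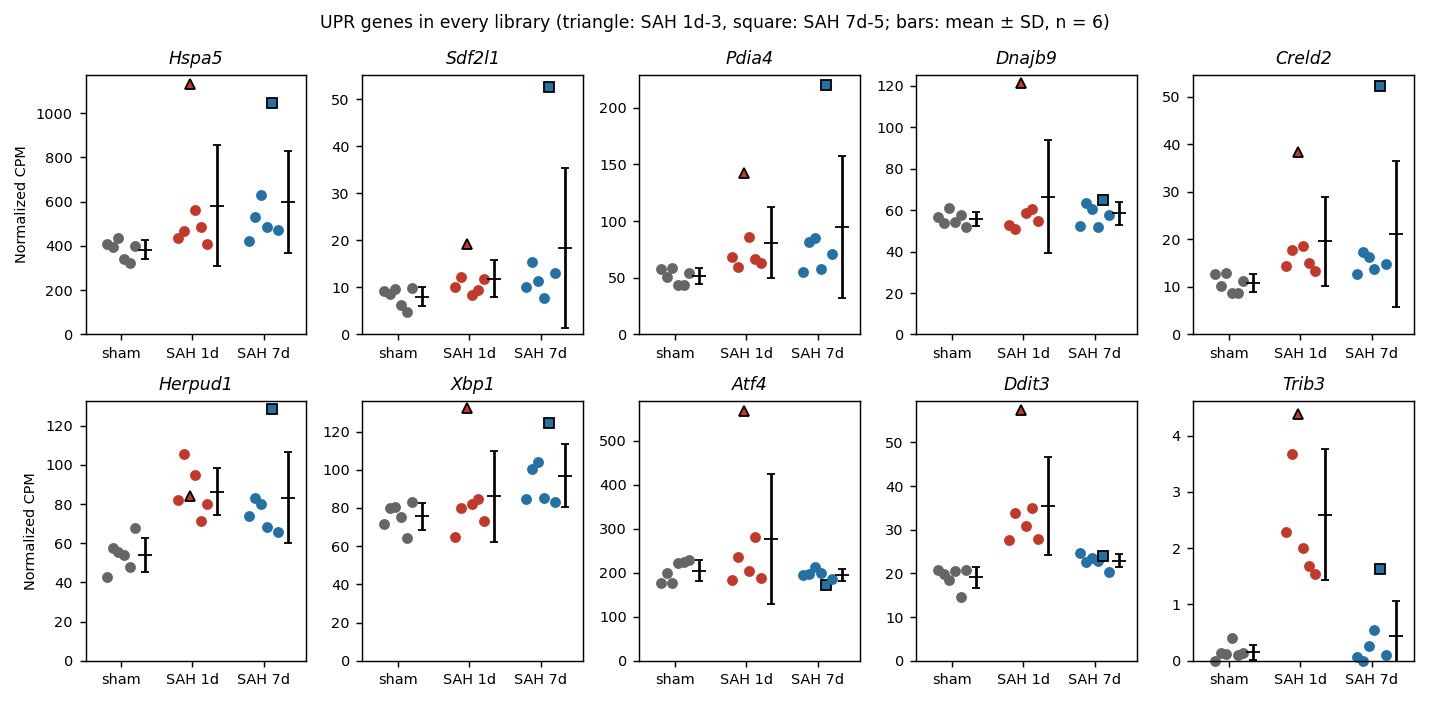
Normalized CPM of the 10 genes (vertical axis of each panel, from 0) in every library by group; points are libraries, the triangle is SAH 1d-3, the square is SAH 7d-5, and bars are the mean ± SD of 6 libraries (bars that would pass below 0 end at 0). Trib3 and Ddit3 were high in the SAH 1d group, and the top of most chaperone panels is the square or the triangle.

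Trib3 showed the clearest pattern of the set (identifier ENSRNOG00000007319). It was near the limit of detection in the sham group, with 0, 0.123 and 0.402 CPM as the lowest, median and highest value, on 0 to 13 counts. In the SAH 1d group it was at 1.54, 2.15 and 4.39 CPM, on 48 to 173 counts. The lowest SAH 1d library was above the highest sham library. The log2 fold change was 4.08 ± 0.53 (SE, n = 6 and 6; edgeR, adjusted p = 0.00028). In the SAH 7d group Trib3 was at 0, 0.179 and 1.63 CPM. Of these libraries 4 lay inside the sham range, and the highest was SAH 7d-5.

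Ddit3 (ENSRNOG00000006789), the transcription factor CHOP that is known for promoting cell death under lasting ER stress, was expressed far more than Trib3. It was at 14.6, 20.2 and 20.9 CPM in the sham group and at 27.7, 32.3 and 57.4 CPM in the SAH 1d group (lowest, median, highest). The groups did not overlap, and the log2 fold change was 0.89 ± 0.17 (SE; edgeR, adjusted p = 0.00325). Without SAH 1d-3, the library with 57.4 CPM, the change was 0.70 ± 0.10 and still passed (adjusted p = 0.000375). At day 7 its range was narrow, from 20.3 to 24.7 CPM with a median of 23.1, and SAH 7d-5 sat inside it.

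Atf4 (ENSRNOG00000017801), the transcription factor upstream of both, did not pass the test. It was at 176, 211 and 229 CPM in the sham group, at 183, 219 and 568 CPM in the SAH 1d group and at 172, 196 and 212 CPM in the SAH 7d group. SAH 1d-3 alone lay far out, since the next SAH 1d library was at 281 CPM. The log2 fold change at day 1 was 0.44 ± 0.25 (SE; edgeR, adjusted p = 0.21), and 0.09 ± 0.12 without SAH 1d-3. In 3 of the 6 SAH 1d libraries Atf4 was inside the sham range, while Ddit3 and Trib3 were above theirs in all 6.

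Herpud1 (ENSRNOG00000018796), an ER membrane protein of the degradation machinery, had the smallest SE among the 5 genes that rose. It was at 42.5, 54.6 and 67.9 CPM in the sham group and at 71.3, 83.0 and 105 CPM in the SAH 1d group. The log2 fold change was 0.67 ± 0.12 (SE; edgeR, adjusted p = 0.00184). It was also the only 1 of the 10 genes for which SAH 1d-3, at 84.2 CPM, was not the highest of its group, and without that library the change was 0.68. Its promoter is the one printed above with the ERSE-II.

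Creld2 and Pdia4, both in the folding of disulfide-bonded proteins, rose together at day 1. Creld2 (ENSRNOG00000004659) was at 8.68, 10.8 and 12.9 CPM in the sham group and at 13.3, 16.4 and 38.3 CPM in the SAH 1d group. Pdia4 (ENSRNOG00000006228), a protein disulfide isomerase, was at 43.7, 52.4 and 59.0 CPM in the sham group and at 59.3, 67.7 and 142 CPM in the SAH 1d group. For each gene the lowest SAH 1d library lay only just above the highest sham library. The log2 fold change was 0.86 ± 0.24 for Creld2 (edgeR, adjusted p = 0.0205) and 0.66 ± 0.20 for Pdia4 (adjusted p = 0.0267), with SE. Without SAH 1d-3 both changes were smaller, 0.55 and 0.42, and both still passed (adjusted p = 0.00752 and 0.0111). Pdia4 lost its call when sham-2, sham-4 or sham-5 was left out (adjusted p = 0.0501, 0.0582 and 0.0598).

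Hspa5 (ENSRNOG00000018294) encodes BiP, the main chaperone of the ER lumen, which also holds the sensors inactive. It was at 324, 397 and 434 CPM in the sham group and at 410, 477 and 1133 CPM in the SAH 1d group, so the lowest SAH 1d library overlapped with the sham libraries. The log2 fold change of 0.61 ± 0.22 (SE) did not pass (edgeR, adjusted p = 0.0606). Without SAH 1d-3 the change was smaller, 0.30 ± 0.09, with less spread, and it passed (adjusted p = 0.03). Without that library 6 of the 10 genes were called.

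Sdf2l1, Dnajb9 and Xbp1 also did not pass at day 1. Sdf2l1 (ENSRNOG00000001859), a partner of BiP, was at 4.80, 8.88 and 9.88 CPM in the sham group and at 8.34, 11.01 and 19.3 CPM in the SAH 1d group, a log2 difference of 0.56 ± 0.22 (SE; edgeR, adjusted p = 0.078). Dnajb9 (ENSRNOG00000004006), a co-chaperone known as a target of spliced XBP1, was at 51.7, 55.5 and 61.2 CPM in the sham group and at 50.9, 56.7 and 121 CPM in the SAH 1d group. The high value was SAH 1d-3, and the log2 difference went from 0.25 with it to -0.01 without it. Xbp1 (ENSRNOG00000010298) was at 64.0, 77.6 and 83.3 CPM in the sham group and at 65.0, 80.9 and 133 CPM in the SAH 1d group, a log2 difference of 0.19 ± 0.15 (SE; adjusted p = 0.366) that was 0.02 without SAH 1d-3.

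Levels of different genes can be set beside each other only per length, in fragments per kilobase of transcript scaled to library size (FPKM). In the sham group the median FPKM was 143 for Atf4, 141 for Hspa5, 64.9 for Xbp1, 27.6 for Herpud1, 26.1 for Dnajb9, 21.1 for Pdia4, 20.4 for Ddit3, 7.63 for Sdf2l1, 7.54 for Creld2 and 0.0469 for Trib3. Neighbours in this order whose ranges overlapped were Atf4 and Hspa5, Herpud1 and Dnajb9, Pdia4 and Ddit3, and Sdf2l1 and Creld2. At day 1 Hspa5 (188) was above Atf4 (159) in median FPKM, with overlapping ranges. At day 7 the ranges of this pair no longer overlapped, from 158 to 400 for Hspa5 and from 121 to 147 for Atf4. Ddit3 took rank 5 in the SAH 1d group, at 36.2, and rank 7 in the other groups.

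At day 7 none of the 10 genes passed the test against the sham group, and none of all 18444 genes did (0% called by edgeR). At an unadjusted p under 0.05, 7 of 10 genes were higher and 0 lower, where 11.7% of all genes were higher and 3.66% lower. DESeq2 called 459 genes, among them Herpud1 (adjusted p = 0.0277) and none of the other 9, and limma voom called 2 genes and none of the 10. The 7 were Sdf2l1, Creld2, Pdia4, Hspa5, Herpud1, Xbp1 and Ddit3. The median log2 difference of the 10 genes was 0.63, beside 0.00 over all genes tested.

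The 7 genes at day 7 were mostly the chaperone and folding genes, and their top library was SAH 7d-5 except for Ddit3. Sdf2l1 was at 7.77, 12.2 and 52.7 CPM in the SAH 7d group, with 15.5 CPM as the second highest value. Creld2 was at 12.7, 15.5 and 52.3 CPM, with 17.4 CPM as the second highest. Pdia4 was at 55.0, 76.1 and 220 CPM, with 84.7 CPM as the second highest. Hspa5 was at 420, 509 and 1046 CPM, Herpud1 at 65.8, 77.0 and 128 CPM and Xbp1 at 82.9, 92.7 and 125 CPM. In each of these 6 genes the median of the SAH 7d group was above the median of the sham group, and the groups overlapped.

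The log2 difference between the SAH 7d and sham groups was 1.20 ± 0.43 for Sdf2l1 (SE; edgeR, adjusted p = 0.259), 0.98 ± 0.33 for Creld2 (adjusted p = 0.243) and 0.89 ± 0.31 for Pdia4 (adjusted p = 0.247). For Hspa5 it was 0.65 ± 0.20 (adjusted p = 0.223), for Herpud1 0.62 ± 0.17 (adjusted p = 0.214), for Xbp1 0.36 ± 0.11 (adjusted p = 0.219) and for Ddit3 0.26 ± 0.10 (adjusted p = 0.266). Without SAH 7d-5 the differences were 0.53 for Sdf2l1, 0.48 for Creld2, 0.45 for Pdia4, 0.42 for Hspa5, 0.46 for Herpud1 and 0.28 for Xbp1, with 0 of 10 genes called. Trib3 differed by 1.53 ± 0.96 with SAH 7d-5 (adjusted p = 0.428) and by 0.37 without it. Dnajb9 (0.07) and Atf4 (-0.07) were near 0.

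Between the 2 times after SAH, Ddit3 had a median of 32.3 CPM at day 1 and 23.1 CPM at day 7, and Trib3 of 2.15 and 0.179 CPM. Medians of the chaperone genes lay closer together, at 477 and 509 CPM for Hspa5 and at 16.4 and 15.5 CPM for Creld2. None of the 10 passed edgeR's test (adjusted p under 0.05), where 1.37% of all genes passed and 1.08% were lower. At an unadjusted p under 0.05, 2 of 10 were lower, Ddit3 and Trib3, beside 8.05% of all genes. All 6 SAH 7d libraries were below all 6 SAH 1d libraries in Ddit3, which held for 2.11% of all genes, and the log2 difference was -0.63 ± 0.17 (SE; adjusted p = 0.0939). For Trib3 it was -2.55 ± 0.80 (adjusted p = 0.148), and the groups overlapped, with SAH 7d-5 above the lowest SAH 1d library.

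The call on this pair of genes depended on the libraries and the tool. Without SAH 7d-5, Trib3 fell by 3.73 on the log2 scale (edgeR, adjusted p = 0.00752) and Ddit3 fell by 0.65 (adjusted p = 0.0442). Without SAH 1d-3, Ddit3 fell by 0.44 (adjusted p = 0.035) and Trib3 differed by -2.33 (adjusted p = 0.21). DESeq2 and limma voom called both genes lower. The log2 difference was 0.04 ± 0.29 for Hspa5, -0.05 ± 0.17 for Herpud1, 0.12 ± 0.39 for Creld2, 0.23 ± 0.35 for Pdia4 and 0.64 ± 0.44 for Sdf2l1 (SE). Those SEs leave room for sizeable differences in either direction, and without SAH 7d-5 the sign turned for Hspa5 (-0.20), Creld2 (-0.40), Pdia4 (-0.22) and Sdf2l1 (-0.05). Because all 3 comparisons share groups, they are not independent of each other.

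**Figure D2:**
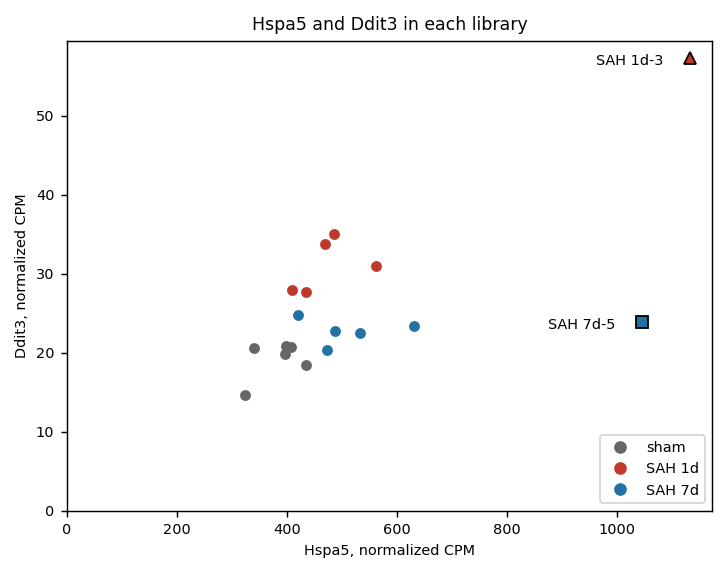
Normalized CPM of Hspa5 (horizontal axis) and Ddit3 (vertical axis) in each of 18 libraries, both axes from 0, with sham in grey, day 1 in red and day 7 in blue. SAH 1d-3 (triangle) is high in both genes, and SAH 7d-5 (square) is high in Hspa5 at 1046 CPM with Ddit3 at 23.9 CPM, inside the range of its group.

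The libraries that stood apart differed from each other in the UPR genes. SAH 1d-3 was the highest of its group in 9 of the 10 genes, Atf4 and Ddit3 included, and in 99 of 141 other genes of the pathway. Its level was 2.79 times the median of the other 5 SAH 1d libraries for Atf4, 2.55 times for Creld2, 2.42 times for Hspa5, 2.22 times for Dnajb9 and 1.85 times for Ddit3. SAH 7d-5 was the highest of its group in 8 of the 10 genes and in 85 of 141 others. In contrast to SAH 1d-3, it was the lowest of its group in Atf4, at 172 CPM, and second in Ddit3. The ratio of Hspa5 to Ddit3 CPM was 43.8 in SAH 7d-5 against a group median of 23.5, and 19.7 in SAH 1d-3 against a group median of 15.2.

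Marker levels in these libraries also differed from the rest of their groups, and not all in the same direction. SAH 7d-5 had the macrophage and fibroblast sums given above. The 5 B cell and plasma cell markers in the table summed to 3.48 CPM there against at most 1.10 in the rest of its group. These sums are low, with up to 1.69 CPM in the sham group, and only 1 of the 5 markers passed the filter on low counts. The 6 neutrophil markers summed to 220 CPM in SAH 7d-5 against at most 21.1 in the rest of its group. The 5 red cell markers were lowest in SAH 7d-5, with a sum of 1.69 CPM against 7.59 to 65.3 in the rest of its group. In SAH 1d-3 the macrophage sum was raised too, and the 5 endothelial markers summed to 317 CPM against 145 to 176 in the rest of its group. The neutrophil sum there was 64.6 CPM against at most 15.2, the B cell and plasma cell sum 2.92 CPM against at most 1.20, and the sum of 5 red cell markers 189 CPM against at most 101. The sum of 6 microglia markers was not raised in SAH 1d-3, at 319 CPM against 320 to 361 in the rest of its group. Over whole groups, the macrophage sum was 99.9 to 135 CPM in the SAH 1d group without SAH 1d-3 and 50.9 to 90.7 CPM in the sham group, which did not overlap. The 6 astrocyte markers summed to 4517 to 5685 CPM in the SAH 1d group and to 2085 to 3813 CPM in the sham group. Of these 6, Gfap, a filament protein of astrocytes, rose from a mean of 363 to 2903 CPM (edgeR, adjusted p = 1.37e-06), Aldh1l1 fell to 0.556 times its sham level (adjusted p = 0.008), and the median log2 fold change of the list was -0.17. The 7 neuron markers summed to 5033 to 6171 CPM in the SAH 1d group and to 6227 to 9820 CPM in the sham group. The part of these cells in the UPR values was not tested. The 5 genes called at day 1 were also called without SAH 1d-3.

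**Figure D3:**
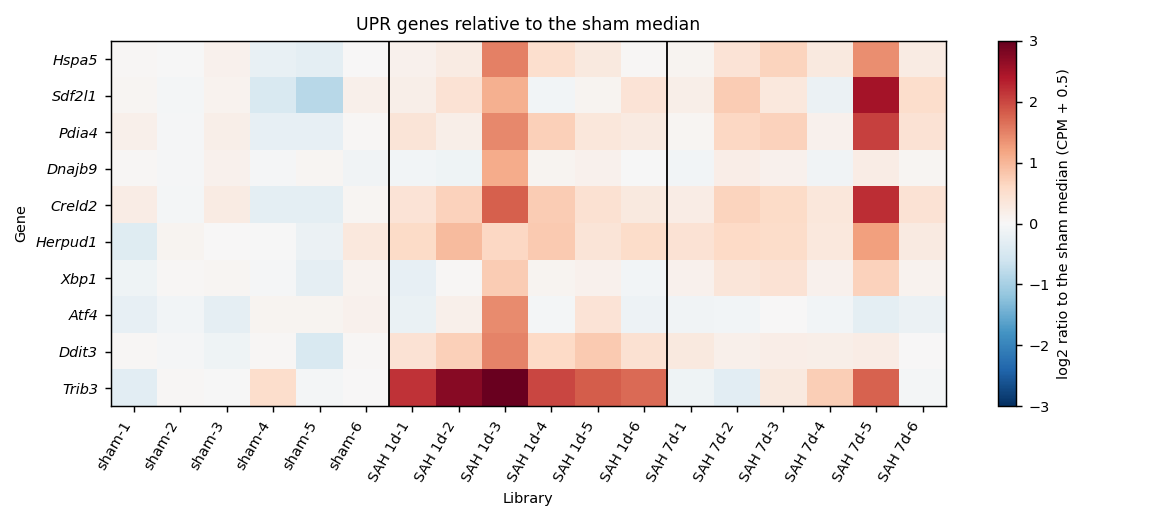
Log2 ratio of each library to the sham median (colour, computed on CPM + 0.5 and drawn from -3 to 3) for the 10 genes (rows) in 18 libraries (columns), with lines between groups. Trib3 is red in all 6 SAH 1d libraries, and the columns with the most red are SAH 7d-5 and SAH 1d-3.

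To place the 10 genes in their pathway, 148 other genes in 9 lists by role were read from the same fits. They are called other UPR genes for short, though many belong to the wider integrated stress response. Of these, 143 had a row in the table and 141 passed the filter. At day 1 against the sham group, 50 of 141 were higher and 2 lower (36.9% called), beside 14.9% higher and 10.5% lower over all genes. Without SAH 1d-3, 53 were higher and 5 lower, and of all genes 2846 were higher and 2406 lower in place of 2748 and 1936.

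The lists of the ATF4 branch held most of the genes that rose. Of 15 regulators and effectors around ATF4, 10 rose and 0 fell (66.7% called), with a median log2 fold change of 1.08. Of all genes, 14.9% were called higher and 25.4% in either direction. Stc2, a secreted glycoprotein, went from 0.566, 1.11 and 1.88 CPM in the sham group to 4.09, 7.31 and 8.81 CPM in the SAH 1d group, and rose 6.18-fold (edgeR, adjusted p = 6.81e-05). Chac1, an enzyme that degrades glutathione, went from 7.53, 11.2 and 12.7 CPM to 19.7, 28.3 and 35.8 CPM, and rose 2.73-fold (adjusted p = 8.89e-05). Atf3, a stress-induced transcription factor, rose 24.4-fold (adjusted p = 0.000389), from at most 1.67 CPM to between 6.97 and 68.1 CPM. Without SAH 1d-3, whose level was the highest, the rise was 15.4-fold. In Stc2, Chac1 and Atf3 the groups did not overlap.

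Of 29 genes for amino acid supply and tRNA charging, known as targets of ATF4, 19 rose and 0 fell (65.5% called). Their median log2 fold change was 0.42. Mthfd2, an enzyme of mitochondrial folate metabolism, rose 3.47-fold from a sham median of 4.91 CPM (edgeR, adjusted p = 6.01e-05). Yars, a tRNA synthetase, rose 1.79-fold (adjusted p = 6.01e-05). Its lowest SAH 1d library, at 161 CPM, was well above the highest sham library, at 109.6 CPM. Asns, the asparagine synthetase, rose 1.35-fold with overlapping groups (adjusted p = 0.0381).

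In the list of eIF2alpha kinases and phosphatase subunits, 4 of 11 genes rose and 0 fell (36.4% called). Of all genes, 14.9% were called higher and 25.4% in either direction. Ppp1r15a (GADD34), which brings a phosphatase to eIF2alpha and so restores translation, rose 2.87-fold (edgeR, adjusted p = 0.000292), from 15.6, 17.8 and 22.8 CPM to 33.4, 46.6 and 80.0 CPM. Eif2ak2 (PKR), a kinase of eIF2alpha that answers double-stranded RNA, rose 2.09-fold (adjusted p = 0.00689). The sensors themselves did not pass: 0 of 6 sensors and proteases were called. Ern1 differed by 0.27, Atf6 by 0.30 and Eif2ak3 by -0.03 on the log2 scale (adjusted p = 0.209, 0.116 and 0.816).

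The lists of the ER folding machinery held fewer calls and smaller changes. Of 19 chaperones and co-chaperones 3 rose and 1 fell, with a median log2 fold change of 0.19. That is 21.1% called, beside 25.4% of all genes, so this list was not called more often than genes at large. Dnajc3, a co-chaperone that inhibits PERK, rose 1.79-fold (edgeR, adjusted p = 0.0135), Manf, a secreted ER stress protein, 1.38-fold (adjusted p = 0.0358) and Hyou1, a large ER chaperone, 1.26-fold (adjusted p = 0.0301). Without SAH 1d-3 these rises were 1.46-fold, 1.21-fold and 1.19-fold, and all 3 passed. Hsp90b1 (GRP94) and Calr (calreticulin) differed by 0.49 and 0.34 on the log2 scale and did not pass (adjusted p = 0.0622 and 0.0696). Without SAH 1d-3 these differences were 0.26 and 0.20. In that fit Hsp90b1 passed (edgeR, adjusted p = 0.0475) and Calr did not (adjusted p = 0.0597). The gene that fell was Calr4, a low-abundance calreticulin paralog, at 1.30 to 3.20 CPM in the sham group and 0.179 to 0.646 CPM in the SAH 1d group (adjusted p = 0.000936).

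Of 15 oxidoreductases, which form disulfide bonds, 4 rose. They included P4hb (1.77-fold; edgeR, adjusted p = 0.00823), Qsox1 (1.32-fold; adjusted p = 0.00689) and Pdia6 (1.23-fold; adjusted p = 0.0441). Without SAH 1d-3 these rises were 1.47-fold, 1.28-fold and 1.15-fold. Of 21 genes of translocation and export 7 rose, led by Sec24d, a coat protein of vesicles leaving the ER (1.96-fold; adjusted p = 0.00436), and Sec61a1, a subunit of the translocation channel (1.48-fold; adjusted p = 0.0118). Without SAH 1d-3, Sec24d rose 1.65-fold and Sec61a1 1.32-fold. Of 21 genes of ER-associated degradation 2 rose and 1 fell. The share called in either direction was 26.7% in the oxidoreductases, 33.3% in translocation and export and 14.3% in degradation, beside 25.4% of all genes. In the oxidoreductases and in translocation and export all calls were higher, where 14.9% of all genes were called higher. Edem1, a lectin that sorts misfolded glycoproteins, rose 1.63-fold (adjusted p = 0.00474) and Faf2 1.30-fold (adjusted p = 0.00403), and Sel1l differed by -0.05 on the log2 scale (adjusted p = 0.634). Without SAH 1d-3, Edem1 rose 1.47-fold and Faf2 1.31-fold. Of 4 genes of the CREB3 family 1 rose, Creb3 (1.30-fold; adjusted p = 0.0427).

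**Figure D4:**
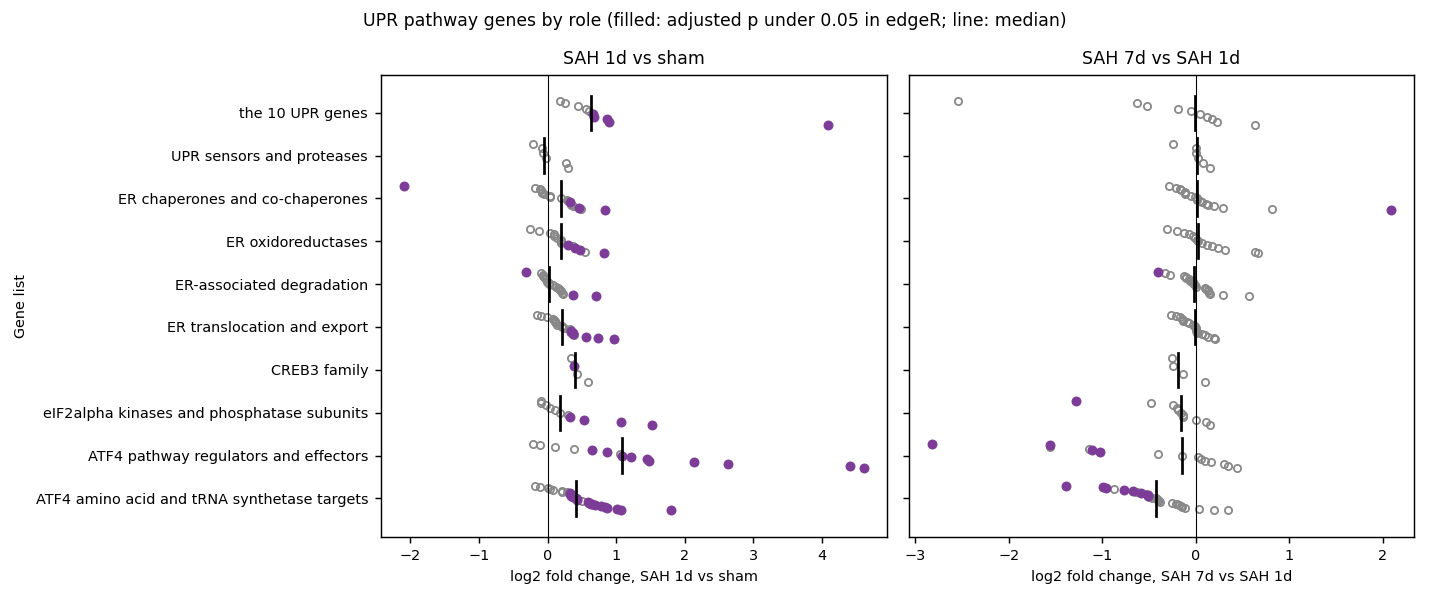
Log2 fold change (horizontal axis) of the 10 UPR genes and of 141 other UPR genes by role (vertical axis), for SAH 1d against sham and for SAH 7d against SAH 1d; each point is a gene, filled points passed edgeR's test at an adjusted p under 0.05, and the line is the median of the list. The ATF4 lists hold 29 of the 50 genes that were higher at day 1, and 12 of the 14 that were lower at day 7 than at day 1.

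Against the sham group, 0 of the 141 genes passed at day 7 by edgeR, and DESeq2 called 2. At an unadjusted p under 0.05 in edgeR, 24 of the 141 were higher and 1 lower, beside 11.7% higher and 3.66% lower over all genes. Stc2, Chac1 and Yars had SAH 7d medians of 0.995, 10.7 and 95.9 CPM beside sham medians of 1.11, 11.2 and 107 CPM. The genes that DESeq2 called, named here after their values were seen, were Nupr1, a stress-induced chromatin protein (log2 difference 1.66; DESeq2 adjusted p = 0.0094), and Cebpb, a transcription factor (0.99; adjusted p = 0.0476), both of the list of ATF4 regulators and effectors. The median log2 difference was 0.49 in that list, where 8 of 15 genes were higher at an unadjusted p under 0.05, 0.22 in the chaperones (4 of 19) and 0.06 in amino acid supply and tRNA charging (2 of 29, with 1 lower). These list values include SAH 7d-5. Without it, Nupr1 differed by 1.36 (edgeR, adjusted p = 0.155) and Cebpb by 0.63 (adjusted p = 0.151). In the same list Atf3 differed by 0.70 in place of 3.04, and Chac1 by -0.006 in place of -0.11. Of the chaperones, Dnajc3 differed by 0.71 on the log2 scale (edgeR, adjusted p = 0.278) and Manf by 0.53 (adjusted p = 0.249). Without SAH 7d-5 and SAH 1d-3 the log2 difference of Dnajc3 was 0.30 and that of Manf 0.30.

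From day 1 to day 7, 14 of the 141 genes fell and 1 rose (edgeR), beside 1.08% lower and 0.282% higher over all genes. Of the 29 genes for amino acid supply and tRNA charging 8 fell, among them Yars (log2 difference -0.99 ± 0.11; adjusted p = 0.00127) and Cars, a tRNA synthetase (-0.77 ± 0.14; adjusted p = 0.0169). Of the 15 ATF4 regulators and effectors 4 fell, among them Stc2 (-2.83 ± 0.23; adjusted p = 0.000134) and Chac1 (-1.56 ± 0.17; adjusted p = 0.00098), with SE. In Yars, Cars, Stc2 and Chac1 the groups did not overlap. Mthfd2, with overlapping groups, fell by 1.39 (adjusted p = 0.0425). Ppp1r15a fell by 1.29 (adjusted p = 0.00942) and Faf2 by 0.40 (adjusted p = 0.0362), and Calr4 rose by 2.09 back to a mean of 1.86 CPM (adjusted p = 0.0166). Atf3 differed by -1.56 and did not pass (adjusted p = 0.518), with SAH 7d-5 at 40.7 CPM and the next SAH 7d library at 2.70 CPM. Without SAH 7d-5 and SAH 1d-3 it fell by 3.26 (adjusted p = 0.00196).

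In the lists of oxidoreductases, translocation, sensors and the CREB3 family, 0 genes passed between the 2 times. Among the chaperones, Hsp90b1 differed by -0.16, Hyou1 by -0.11, Dnajc3 by -0.12 and Manf by 0.07 on the log2 scale (adjusted p from 0.803 to 0.924). Without SAH 7d-5 and SAH 1d-3, 18 of the 29 amino acid and tRNA genes and 7 of the 15 ATF4 regulators and effectors fell, and 3 of the 21 genes of translocation. In that fit 2512 of all genes were called, in place of 252. With 1 library left out at a time, from 5 (without SAH 7d-2) to 30 (without SAH 7d-5) of the 141 genes were called in place of 15, and of all genes 102 and 1545 in the same fits.

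The same promoter words were searched in the other UPR genes. The ER stress response element was in the windows of 7 of the 126 other UPR genes that had one, namely Calr, Calr4, Canx, Derl3, Dnajc3, Ero1b and Hsp90b1, all genes of the folding machinery or of degradation. ERSE-II was in those of Dnajb11 and Hyou1. The C/EBP-ATF core was in 13 of 126 windows, among them those of Chac1 and of the tRNA synthetase genes for which RefSeq gives the symbols Aars1, Cars1, Iars1, Mars1, Nars1, Tars1 and Yars1. Derl3 was not analysed here for its counts.

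By Pearson correlation of log2 CPM over the 18 libraries, the genes most like Hspa5 were Manf (r = 0.952), Hsp90b1 (0.946), Pxn (0.941), Max (0.931) and Calr (0.930). The genes most like the mean of the 10 members, each scaled to its SD, were Spsb1 (r = 0.970), Anxa2 (0.961), Angpt2 (0.953), Plin2 (0.950) and Chsy1 (0.950). Over the 16 libraries without SAH 7d-5 and SAH 1d-3 the order changed, to Ahnak (0.896) first for Hspa5 and Manf (0.921) first for the mean. Among the 10 genes the 45 pairs had a median r of 0.63 over 18 libraries and 0.44 over 16. These values describe libraries of 3 groups together, which share group differences and the libraries that stood apart.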

How the data were processed

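Total RNA of 18 cortex samples was sequenced. The authors made the deposited tables, raw counts per gene and FPKM, from reads trimmed with fastp and aligned with HISAT2, per the labels; no source used here names the counting tool or its strand setting. The study's methods name the rat build Rnor_6.0, while the submitters' processing notes name mm9 and the label protocol speaks of mice and of the cortex of both sides where the methods name the operated side; the gene identifiers are those of rat. Total counts ran from 27270026 to 38271014 per library, so low genes such as Trib3 carry the most counting error.

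Counts of 12 libraries per comparison were tested with edgeR 4.0.16 (quasi-likelihood F test, two-sided, TMM scaling, filterByExpr over 18 libraries, R 4.3.3), and p-values were adjusted by Benjamini-Hochberg over 18444 genes. A gene was called at an adjusted p under 0.05, and a DEG also needed an absolute log2 fold change of at least 1. CPM values are TMM-normalized over all 18 libraries. Of the genes in the table, 8685 are loci named NewGene without a symbol. On counts simulated from the comparison of the SAH 1d and sham groups over 18444 genes, 98% of genes changed 4-fold and 78% of genes changed 2-fold were recovered. Between the SAH 7d and sham groups these were 98% and 65%, and between the SAH 7d and SAH 1d groups 86% and 51%. Changes were planted only in genes above a minimum mean count, so low genes are not covered. Each gene was drawn on its own, so libraries that stand apart in many genes at once were not simulated, and these shares may not hold for the data.

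The 10 genes, the role lists and the marker lists were chosen with earlier results of these data known. From each role list the text names the 2 genes with the smallest adjusted p among those called, plus a set of well-known genes (Hsp90b1, Calr, Hyou1, Dnajc3, Manf, Pdia6, Ern1, Eif2ak3, Atf6, Edem1, Sel1l, Derl3, Ppp1r15a, Atf3, Chac1, Asns). Genes most like Hspa5 and the mean of the 10 were ranked by correlation of log2(CPM + 0.5). The study's methods give 18 rats, 6 in each group, as many as there are libraries. The labels name no batch and no animal for a library, so p-values measure the spread between libraries, which includes any technical spread. Alternatives were DESeq2 1.42.0 (size factors or Wald test), limma 3.58.1 (voom with quality weights, and log2(FPKM + 1) or log2(FPKM + 0.1) with a mean FPKM of at least 0.5 or no filter), edgeR's robust fit, other filters on counts (none, or at least 10 counts in every library), all 18 libraries in one fit, the replicate number as a block, and leaving out libraries.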

Additional observations from a re-analysis of the deposited data

Results flagged for a closer look

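Among 30 sets of values (10 genes in 3 groups of 6), Dixon's test set 15 values apart from the rest of their group, all from 3 libraries. Chance does so in about 1 in 20 groups, and the genes of 1 library are not independent of each other. SAH 1d-3 accounted for 8 of them, with 1133 CPM for Hspa5, 568 for Atf4, 142 for Pdia4, 133 for Xbp1, 121 for Dnajb9, 57.4 for Ddit3, 38.3 for Creld2 and 19.3 for Sdf2l1. SAH 7d-5 accounted for 6, with 1046 CPM for Hspa5, 220 for Pdia4, 128 for Herpud1, 52.7 for Sdf2l1, 52.3 for Creld2 and 1.63 for Trib3. The remaining 1 was Trib3 in sham-4, at 0.402 CPM, a level of few counts.

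Levels in the SAH 7d group differed from those in the SAH 1d group, by edgeR's test of the difference itself, for 8 of the genes named in the text. The log2 difference was -2.83 for Stc2, -1.56 for Chac1, -1.39 for Mthfd2, -1.29 for Ppp1r15a, -0.99 for Yars, -0.77 for Cars, -0.40 for Faf2 and 2.09 for Calr4. All of these but Mthfd2 met the rule of naming the called genes with the smallest adjusted p in this same comparison. Passing was thus a condition of that rule, and the number of 8 genes is no result of its own.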

How the results depend on the processing

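At day 1 against sham, Trib3, Ddit3 and Herpud1 passed in all alternatives that gave them a test. The number of the 10 genes called ran from 3 to 7 over alternatives other than leaving out 1 library, and from 4 to 6 with each library left out. The lowest count, 3, came from all 18 libraries in one fit, with 33 other UPR genes in place of 52 and 2462 of all genes in place of 4684; Creld2 (adjusted p = 0.0907) and Pdia4 (0.14) then missed the threshold, and the cause was not tested. Other UPR genes called ran from 38 to 58 with each library left out. On log2(FPKM + 1), 3678 genes were higher and 983 lower, beside 2748 and 1936 in the counts, and on log2(FPKM + 0.1) the median of all genes was 0.11 instead of 0.01.

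At day 7 against sham, DESeq2's Wald test called 1 of the 10 genes, 2 other UPR genes and 459 of all genes; all 18 libraries in one fit called 9 of all genes and limma voom 2, none of them among the 10. With each library left out, 0 of the 10 and 0 other UPR genes were called.

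Between day 7 and day 1, 2 of the 10 genes were called by DESeq2's Wald test, by limma voom, on log2(FPKM + 1), on log2(FPKM + 0.1) and without SAH 7d-5 and SAH 1d-3, and 1 with all 18 libraries in one fit and on log2(FPKM + 1) without a filter. They were Ddit3 and Trib3, Ddit3 alone in the fit of 18 libraries and Trib3 alone without the FPKM filter. Other UPR genes called went from 15 to 28 by DESeq2's Wald test, 36 by limma voom, 28 with all 18 libraries, 23 on log2(FPKM + 1), 24 on log2(FPKM + 0.1) and 34 without both libraries. All genes called went from 252 to 1012 by DESeq2's Wald test, 2718 by limma voom, 779 with all 18 libraries, 414, 420 and 393 on log2(FPKM + 1), log2(FPKM + 0.1) and unfiltered FPKM, and 2512 without both libraries. With each library left out, the 10 genes gave 0 to 2 calls and the others 5 to 30 (all genes 102 to 1545); the highest was without SAH 7d-5, the lowest without SAH 7d-2, and it was 7 to 9 without SAH 1d-1, SAH 1d-2, SAH 1d-5, SAH 7d-1, SAH 7d-3, SAH 7d-4 or SAH 7d-6.

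Same-numbered libraries did not deviate together (correlations from -0.30 to 0.27). These numbers come from the sample descriptions, some titles carry other codes, and a pairing in another order was not tested. With the replicate number as a block, 6, 0 and 0 of the 10 genes and 43, 0 and 3 other UPR genes were called in the 3 comparisons, and 29 of all genes between day 7 and day 1. Signs turned only for values that did not pass: at day 1, Xbp1 (-0.023, limma voom) and Dnajb9 (-0.010 without both libraries; -0.010 to 0.32 with each left out); at day 7 against sham, Trib3 (-0.16, limma voom). Between day 7 and day 1 they turned for Dnajb9 (0.016 by limma voom, 0.037 without both libraries) and Creld2 (-0.060 by limma voom, -0.013 with the replicate block, -0.047 on log2(FPKM + 1) with and without a filter, -0.055 on log2(FPKM + 0.1), -0.082 without both libraries). With each library left out, the ranges in that comparison crossed 0 for Hspa5 (-0.20 to 0.35), Herpud1 (-0.22 to 0.016), Dnajb9 (-0.26 to 0.075), Sdf2l1 (-0.053 to 0.83), Pdia4 (-0.22 to 0.47) and Creld2 (-0.40 to 0.43). Depth limits Trib3 most, with 0 to 13 counts per sham library.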

Other observations

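The sum of 6 choroid plexus markers was 1061 CPM in SAH 1d-6 and 732 CPM in SAH 1d-4, and from 3.44 to 68.7 CPM in the other 16 libraries. The sum of the 6 microglia markers ran from 318 to 1013 CPM in the SAH 7d group without SAH 7d-5, which was at 2447 CPM, and from 259 to 455 CPM in the sham group.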
